A study of Mus musculus with 50 samples.

Results

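Single-cell RNA-Seq of iRunx1-iHECs was used to compare cells that carried transcripts of Efnb2 but not of Nr2f2 with cells that carried Nr2f2. iHECs are hemogenic endothelial cells, an endothelium with the capacity to form blood, and here they were made in culture from mouse embryonic stem cells of the C57BL/6 strain. The stem cells held a Runx1 cassette at the Rosa26 locus that doxycycline switches on, and each cell was sorted by the study at day 11 as CD31+CD41lowCD45-c-kit+CD201high. All cells thus shared the line, the inserted cassette, the doxycycline and the gate, and no untreated or wild-type cells were among them. Which clone the cells came from was not stated.

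A cell was put in the Efnb2-only class where Efnb2 was above TPM 1 (TPM is a length-scaled transcript abundance on a common total per cell) and Nr2f2 was at or below 1. A cell was put in the Nr2f2-expressing class where Nr2f2 was above TPM 1, whatever its Efnb2. Both classes were thus chosen by the measured values of Efnb2 and Nr2f2 themselves. Of 50 cells, 41 entered the comparison, 22 as Efnb2-only and 19 as Nr2f2-expressing, and the other 9 had neither gene above TPM 1 and were left out. The labels name no separate cultures, and how many cultures the cells came from was not stated, so the 50 cells were treated as 1 sample. Cells of 1 sample are not replicates, and therefore no significance test was made and no p-value or standard error is given. The errors below are the spread over cells and, for shares of cells, exact Clopper-Pearson 95% intervals that cover counting error only.

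Efnb2 codes for ephrin-B2, a membrane ligand of arterial endothelium whose receptor EphB4, from Ephb4, is found mainly on veins. Nr2f2 codes for COUP-TFII, a nuclear receptor that holds venous identity and is known to repress Notch signalling in veins. Notch receptors and their ligands act upstream of Efnb2 in arterial cells, and in the embryo the hemogenic endothelium that gives rise to stem cells lies chiefly in arteries.

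Most cells with Nr2f2 had Efnb2 as well. Efnb2, on the minus strand of chromosome 8 (GRCm38, 8617434 to 8661242), exceeded TPM 1 in 13 of the 19 Nr2f2-expressing cells (68.4%, 95% interval 43.4% to 87.4%). Among the 31 cells without Nr2f2 above TPM 1 it was present in 22 (71.0%, 52.0% to 85.8%). The Nr2f2-expressing class was therefore made up of 13 cells with both genes and 6 with Nr2f2 alone. Nr2f2, on the minus strand of chromosome 7 (70351944 to 70366735), ran from 1.29 to 43.4 TPM in this class, with a median of 9.55. Its median was 7.27 TPM in the cells with both genes and 20.5 TPM in the 6 cells with Nr2f2 alone. Efnb2 ran from 1.66 to 256.6 TPM in the Efnb2-only cells, at a median of 28.6, and had a median of 20.04 TPM in the cells with both.

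Few cells lay near the level that set the classes. The lowest values above it were 1.66, 4.57 and 5.49 TPM for Efnb2 and 1.29, 1.896 and 3.58 TPM for Nr2f2. The highest values below it were 0.405, 0.329 and 0.217 TPM for Efnb2 and 0.530, 0.385 and 0.363 TPM for Nr2f2. Efnb2 was listed at 0 in 10 of the 50 cells and Nr2f2 in 24. A value of 0 in a single cell can be a transcript that was missed, so the absence of Nr2f2 from an Efnb2-only cell is a statement about the table.

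**Figure D1:**
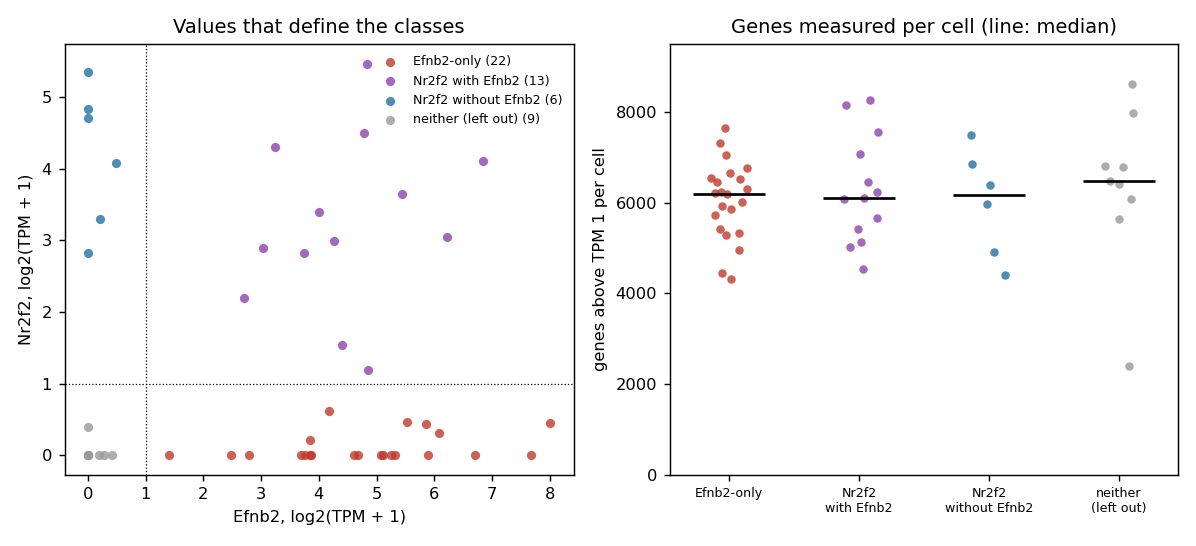
The left panel plots Efnb2 against Nr2f2 for each of the 50 cells as log2(TPM + 1), with dotted lines at TPM 1, and the right panel plots the number of genes above TPM 1 in each cell with the median of each class as a line. The 13 cells with both genes fill the upper right, and the numbers of genes of the classes overlap, with medians of 6200.5 in Efnb2-only cells, 6095 in cells with both genes and 6179.5 in cells with Nr2f2 alone.

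The titles of the cells hold a first number from 1 to 4, and the labels do not explain it. The number of genes above TPM 1 stood in for the unknown sequencing depth. It ran from 4326 to 7655 in the Efnb2-only cells and from 4402 to 8259 in the Nr2f2-expressing cells, and the difference of the medians, 105.5 genes, was smaller than the SD of either class (851 and 1158). Its direction depended on the cells included, at -164 without first title number 3 and -81.5 without cells under 5000 genes. Ribosomal protein genes carried a median of 12.9% of the TPM in Efnb2-only cells and 14.3% in Nr2f2-expressing cells. The Efnb2-only cells had 6, 8, 5 and 3 cells of the 4 first title numbers and the Nr2f2-expressing cells 4, 5, 5 and 5, so differences are also given within each number.

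For every gene, log2(TPM + 1) was fitted on class with the number of genes above TPM 1 as a covariate. The coefficient of class, Efnb2-only minus Nr2f2-expressing, is a difference on the log2 scale, and it understates the difference of genes at low TPM. Among the 8845 rows above TPM 1 in at least 20% of the 41 cells, 627 had a coefficient above 1 (7.09%) and 524 a coefficient below -1 (5.92%). Without the covariate this split turned to 500 higher in Efnb2-only cells and 628 higher in Nr2f2-expressing cells. The median coefficient of all rows was 0.03. The spread between cells was larger than these differences. The median residual SD of a row was 2.09, and of the 1151 rows past 1 in either direction 1129 had a residual SD above the size of their coefficient. The values of the classes overlapped in all 8845 rows. The counts rested on the cells included: without first title number 3 the upward count was 1021, and without number 2 the downward count was 896. Whatever their size, 468 rows (5.29%) were higher in Efnb2-only cells within each first title number, with and without the covariate. In the same way 529 rows (5.98%) were higher in Nr2f2-expressing cells.

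The other arterial genes did not divide the classes in 1 direction. Of 26 arterial and Notch genes listed, 25 had a row and 19 were frequent enough to count. The coefficient was above 1 for Sox17, Gja4 and Vegfc, 3 of 19 beside 7.09% of all rows, and below -1 for Hes1 and Epas1, 2 of 19 beside 5.92%. It was above 0 for 11 genes and below 0 for 8, beside 51.9% above 0 over all rows, with a median of 0.24 beside 0.03 over all rows. The list's median was 0.48 without number 1, 0.15 without number 4 and 0.079 without number 3, and it was 0.0059 with the classes set at TPM 5 and -0.12 at TPM 10. With the cells of both genes left out it was 0.66. A median of 13.5 listed arterial and Notch genes was above TPM 1 in an Efnb2-only cell and 13 in a Nr2f2-expressing cell. Within the Nr2f2-expressing cells the median was 14 in those with both genes and 11.5 in those with Nr2f2 alone.

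Sox17 (chromosome 1, 4490931 to 4497354), a SoxF transcription factor of arterial and hemogenic endothelium, was above TPM 1 in 19 of 22 Efnb2-only cells (86.4%, 65.1% to 97.1%) and in 12 of 19 Nr2f2-expressing cells (63.2%, 38.4% to 83.7%). Its TPM ran from 0 through a median of 49.4 to 257 in the former and from 0 through 16.3 to 299 in the latter. The coefficient was 1.48 with a residual SD of 2.58, the difference was positive within each of the 4 first title numbers, and leaving out number 1 the coefficient was 0.89. It was 0.52 with the classes set at TPM 10 and 2.403 with the cells of both genes left out. Gja4 (chromosome 4, 127311421 to 127314039), which codes for the arterial gap junction protein connexin 37, had a median of 48.6 TPM in Efnb2-only cells (range 0 to 1049) and 2.96 TPM in Nr2f2-expressing cells (0 to 759). Its coefficient was 1.4, with a residual SD of 3.22, and 0.996 without number 2. It was 0.29 with the classes set at TPM 5 and 3.073 with the cells of both genes left out. Cells with both genes had more Gja4 than those with Nr2f2 alone, with medians of 63.0 and 1.15 TPM, and the difference between the classes was negative, -1.94, within number 4.

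Vegfc (chromosome 8, 54077606 to 54187096), a ligand of the receptor Flt4, had a median of 56.4 TPM in Efnb2-only cells (range 0 to 356) and 5.53 TPM in Nr2f2-expressing cells (0 to 134), with a coefficient of 1.46, or 2.33 with the cells of both genes left out, and a positive difference within each number. Sema3g, an arterial semaphorin, was above TPM 1 in 7 of 22 Efnb2-only cells (31.8%, 13.9% to 54.9%), where it reached 28.1 TPM. It was listed at 0 in all 19 Nr2f2-expressing cells, where a count of 0 allows a share of cells listed above TPM 1 of up to 15.8% by 3 counts, or 17.6% by the exact interval. Neither limits the share of cells that express the gene, since transcripts can be missed. It was too rare to enter the counts above, and it was also above TPM 1 in 1 of the 9 cells left out.

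Members of the Notch pathway itself lay on both sides. Hes1 (chromosome 16, 30064384 to 30067796), a Notch target that codes for a transcriptional repressor, was higher in Nr2f2-expressing cells. It had a median of 356 TPM there (range 4.71 to 2383) and 80.8 TPM in Efnb2-only cells (0.891 to 688), a coefficient of -1.57 with a residual SD of 2.48. The difference was -3.54 and -3.42 within numbers 2 and 4 but 0.23 and 0.80 within numbers 1 and 3, and without number 2 the coefficient was -0.77 and without number 4 it was -0.97. Against the 6 cells with Nr2f2 alone the Hes1 coefficient was -0.27, and its median was 443 TPM in the cells with both genes and 126 TPM in those with Nr2f2 alone. The receptor Notch1 had medians of 17.8 and 11.6 TPM, with a coefficient of 0.77. The ligand Dll4 was above TPM 1 in 10 cells of each class, and the target Hey1 in 8 of 22 and 5 of 19 cells, none of them among the 6 cells with Nr2f2 alone. Nrarp, a Notch target present in all 41 cells, had medians of 213 and 169 TPM. Nrp1, the neuropilin of arteries, had medians of 45.96 and 48.5 TPM and a coefficient of -0.31. Epas1, which codes for the oxygen-regulated factor HIF-2α, was above TPM 1 in 19 of 22 Efnb2-only cells at a median of 22.98 TPM and in 19 of 19 Nr2f2-expressing cells at 47.997 TPM. Its coefficient was -1.04, and -0.57 without number 1, -0.73 without number 4 and -1.71 without number 2.

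Venous and lymphatic genes lay on both sides. Of 18 listed genes 17 had a row and 14 were counted, of which 6 had a coefficient above 0 and 8 below 0, beside 51.9% above 0 over all rows. In each direction 1 of 14 was past 1, beside 7.09% and 5.92% of all rows, and the median was -0.07. The median was -0.45 with the cells of both genes left out, -0.35 without cells under 5000 genes and -0.30 without number 3, but 0.085 without number 2. Both classes had a median of 10 of these genes above TPM 1 per cell. Ephb4, the receptor of ephrin-B2, had medians of 41.6 TPM in Efnb2-only and 45.3 TPM in Nr2f2-expressing cells, and a coefficient of 0.31. Nrp2, the neuropilin of veins and lymphatic vessels, had medians of 8.46 and 19.3 TPM, and Flt4, the receptor for Vegfc, had medians of 22.3 and 43.4 TPM. Their coefficients, -0.85 and -0.95, fell short of the level of 1. Darc, the older symbol of the venous chemokine receptor gene Ackr1, was above TPM 1 in 8 of 22 and 10 of 19 cells, with a coefficient of -1.06 that was -0.38 without number 1 and -2.24 with the cells of both genes left out. Nr2f1, the closest relative of Nr2f2, was above TPM 1 in 1 cell of each class.

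The gene with the highest coefficient among all counted rows that kept their sign within each number was Lyve1 (chromosome 7, 110850607 to 110863239), a hyaluronan receptor of lymphatic, sinusoidal and yolk sac endothelium. It was higher in the Efnb2-only cells. It ran from 0 through a median of 219 to 2516 TPM in the 22 Efnb2-only cells and from 0 through 15.4 to 1160 TPM in the 19 Nr2f2-expressing cells. The shares of cells above TPM 1 were similar, 19 of 22 and 15 of 19, so the classes differed in level more than in presence. The coefficient was 2.86 with a residual SD of 3.5, and the differences within the numbers were 4.56, 0.52, 1.81 and 4.54. With the classes set at TPM 5 or 10 the coefficient was 1.49 or 1.897. Its direction was thus opposite to the venous and lymphatic label under which it was listed. Emcn, the endomucin gene of veins and capillaries, had medians of 445 and 324 TPM and a coefficient of 0.52. Stab1, Stab2, Vwf and Plvap had coefficients between -0.31 and 0.05. Prox1, the factor that defines lymphatic endothelium, was above TPM 1 in 1 of the 41 cells.

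**Figure D2:**
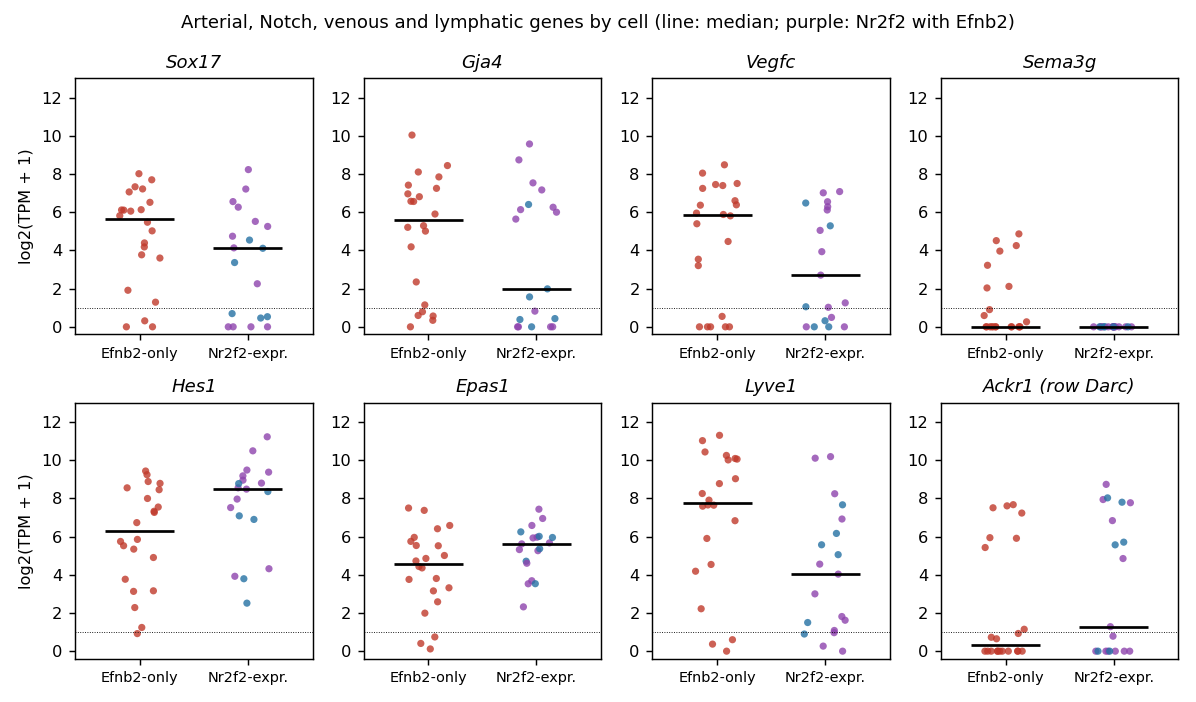
Each point is 1 cell, the vertical axis is log2(TPM + 1), the bar is the class median and the dotted line marks TPM 1. Red points are Efnb2-only cells, purple points have both Efnb2 and Nr2f2, and blue points have Nr2f2 alone. The values of the classes overlap for every gene shown, Sema3g stays at 0 in the Nr2f2-expressing cells, and the medians of Hes1 and Epas1 are higher in the Nr2f2-expressing cells.

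Given these values, the classes are named by their defining genes and not as artery-like or vein-like cells. Of 14 other ephrin and Eph genes listed, 11 had a row and 4 were counted, too few to read their coefficients, all under 1 in size, against the 7.09% and 5.92% of all rows past it. Efna1, the ephrin-A1 gene, had medians of 536 and 389 TPM and a coefficient of 0.74, and its related receptor gene Epha2 was above TPM 1 in 11 cells of each class.

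At least 17 of the 20 general endothelial genes listed were above TPM 1 in each cell of both classes. Of 20 general endothelial genes 19 were counted and none was past 1 in either direction, beside 7.09% and 5.92% of all rows. The median coefficient was 0.08, and it was 0.24 without number 1, -0.025 without number 2 and -0.063 without number 3. Both classes had a median of 19 of these genes above TPM 1. Cdh5, Pecam1 and Esam, which code for junction proteins, were above TPM 1 in 22 of 22 and 19 of 19 cells. Pecam1, the gene for the sorted antigen CD31, had medians of 417 and 297 TPM, and Cd34 had medians of 823 and 567 TPM. Both had positive differences within each number, with coefficients of 0.42 for each. Sox7, a relative of Sox17, lay on the other side, with medians of 101 and 140 TPM and a coefficient of -0.98. The 5 counted flow and maturation genes had a median coefficient of 0.19, which was 1.03 with the cells of both genes left out and -0.498 with the classes set at TPM 10. It was -0.016 without number 1, -0.11 without number 3, 0.010 without number 4 and -0.035 without cells under 5000 genes. Among them, Klf2, the main flow-responsive factor of endothelium, had a coefficient of -0.83 and Nos3, the endothelial nitric oxide synthase gene, 0.19.

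Genes for blood transcription factors had coefficients above 0 in most cases. Of 29 listed, 28 had a row and 22 were counted. The coefficient was above 0 for 18 of them and below 0 for 4, against 51.9% above 0 over all rows, and the median was 0.38. All lists were written with earlier results of these data known, so such tallies hold no independent support. The level of 1 was passed by Tal1, Gfi1 and Bcl11a upward, 3 of 22 beside 7.09% of all rows, and by Ldb1 downward, 1 of 22 beside 5.92%. The number of these factors above TPM 1 per cell was close, with a median of 13.5 in Efnb2-only and 13 in Nr2f2-expressing cells. The SD of the list's median over the 4 first title numbers was 0.83, larger than the median itself, and without number 4 the median was 0.19, without number 2 it was 0.61 and without number 3 0.595. It was 0.21 without cells under 5000 genes, 0.11 with the classes set at TPM 10 and 0.79 with the cells of both genes left out.

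Tal1 (chromosome 4, 115056426 to 115071755), a helix-loop-helix factor required for blood formation, was above TPM 1 in 17 of 22 Efnb2-only cells (77.3%, 54.6% to 92.2%) and in 9 of 19 Nr2f2-expressing cells (47.4%, 24.4% to 71.1%). Its TPM ran from 0 through a median of 10.3 to 34.5 in the former and from 0 through 0.851 to 24.6 in the latter. The coefficient was 1.35 with a residual SD of 1.75. The differences within the numbers were 1.3, 0.20, 2.32 and 1.94, and without number 3 the coefficient was 0.98. Ldb1, which codes for a protein that binds Lmo2 in a complex with Tal1, had the opposite sign, with medians of 29.6 and 41.1 TPM and a coefficient of -1.05, or -0.66 without number 1 and -0.90 without number 2, and -0.75 with the cells of both genes left out. Lmo2 had medians of 32.1 and 27.5 TPM and a coefficient of -0.62. Lyl1, the close relative of Tal1, had a coefficient of 0.63 and Gata2 of 0.47.

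Gfi1 (chromosome 5, 107716657 to 107726036), a repressor that Runx1 induces during the endothelial to hematopoietic transition, was above TPM 1 in 8 of 22 Efnb2-only cells (36.4%, 17.2% to 59.3%) and 4 of 19 Nr2f2-expressing cells (21.1%, 6.05% to 45.6%). It reached 161 TPM in the former and 34.3 TPM in the latter. Of the 4 cells, 1 was among the 13 with both genes and 3 were among the 6 with Nr2f2 alone, and the coefficient of 1.31 was 0.35 once the cells with both genes were left out and 0.82 with the classes set at TPM 5. Bcl11a, a factor of lymphoid development, was above TPM 1 in the same numbers of cells, 8 and 4, and reached 71.2 and 19.5 TPM. Its coefficient was 1.01, and it was under 1 without number 1 (0.97), number 3 (0.93) or number 4 (0.91), and 0.47 with the classes set at TPM 5. Gfi1 and Bcl11a both had positive differences within each number.

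Runx1 itself (chromosome 16, 92601466 to 92826149) was above TPM 1 in 19 of 22 and 16 of 19 cells. It ran from 0.690 through a median of 93.4 to 913 TPM in Efnb2-only cells and from 0.163 through 66.1 to 614 TPM in Nr2f2-expressing cells. The coefficient was 0.91 with a residual SD of 2.88, and the difference changed sign between numbers, at 2.61, -0.31, -1.46 and 2.84. TPM per gene does not separate transcripts of the cassette from those of the endogenous locus. Its partner Cbfb had a coefficient of 0.61. Hoxb5, a marker of blood stem cells, had medians of 47.1 and 24.4 TPM and a coefficient of 0.97. Sfpi1, the older symbol of the myeloid and lymphoid factor gene Spi1, was above TPM 1 in 10 and 7 cells. Fli1, an ETS factor shared by endothelium and blood, was present in all 41 cells at medians of 118 and 97.6 TPM.

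Genes for blood surface and signalling proteins had a median coefficient of 0.61, smaller than the SD of this median over the 4 first title numbers, 0.81. Of 22 listed genes 17 were counted, with coefficients above 0 for 14 and below 0 for 3, beside 51.9% above 0 over all rows. Kit, Csf2rb and Fcer1g were above 1, 3 of 17 beside 7.09% of all rows, and none was below -1. Without number 4 the median of the list was 0.27, and with the classes set at TPM 5 it was 0.29. Csf2rb (chromosome 15, 78325752 to 78353847), the shared beta subunit of the receptors for interleukin-3, interleukin-5 and GM-CSF, was above TPM 1 in 22 of 22 Efnb2-only cells and 18 of 19 Nr2f2-expressing cells. It ran from 32.1 through a median of 148 to 435 TPM in the former and from 0.668 through 94.4 to 458 TPM in the latter. No Efnb2-only cell was under 32.1 TPM, and the SD of log2(TPM + 1) was 0.96 in the Efnb2-only and 2.184 in the Nr2f2-expressing cells. The coefficient was 1.39 with a residual SD of 1.66, and the differences within the numbers were 1.37, 0.95, 1.74 and 1.82.

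Kit (chromosome 5, 75574916 to 75656722), which codes for the stem cell factor receptor c-kit, ran from 4.64 through a median of 48.6 to 208 TPM in Efnb2-only cells and from 0.113 through 33.1 to 172 TPM in Nr2f2-expressing cells. The low values lay in the cells with Nr2f2 alone, 4 of 6 of which were above TPM 1 at a median of 12.6, whereas the 13 cells with both genes had a median of 50.4 TPM. The coefficient was 1.24 in all 41 cells, 0.96 without number 4, 0.79 without cells under 5000 genes, and 2.97 with the cells of both genes left out. Cells were sorted on c-kit protein, so all of them had passed a gate for this gene's product. Procr, the gene of the sorted antigen CD201, had medians of 411 and 262 TPM and a coefficient of 0.84. Cd47, the gene of a surface protein that restrains phagocytosis, was present in all 41 cells, with medians of 326.5 and 176 TPM, with a positive difference within each number and a coefficient of 0.85. Itga2b, the gene of the sorted antigen CD41, had medians of 29.1 and 40.9 TPM and a coefficient of 0.20. Fcer1g, a signalling adaptor of Fc receptors, had a coefficient of 1.5 that was 0.34 without number 1, 2.33 without number 2, 0.55 with the classes set at TPM 5 and 0.75 with the cells of both genes left out, and the related adaptor Tyrobp had a coefficient of 0.10. Ptprc, the gene of CD45, on whose absence cells were sorted, was listed at 0 in all 41 cells.

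**Figure D3:**
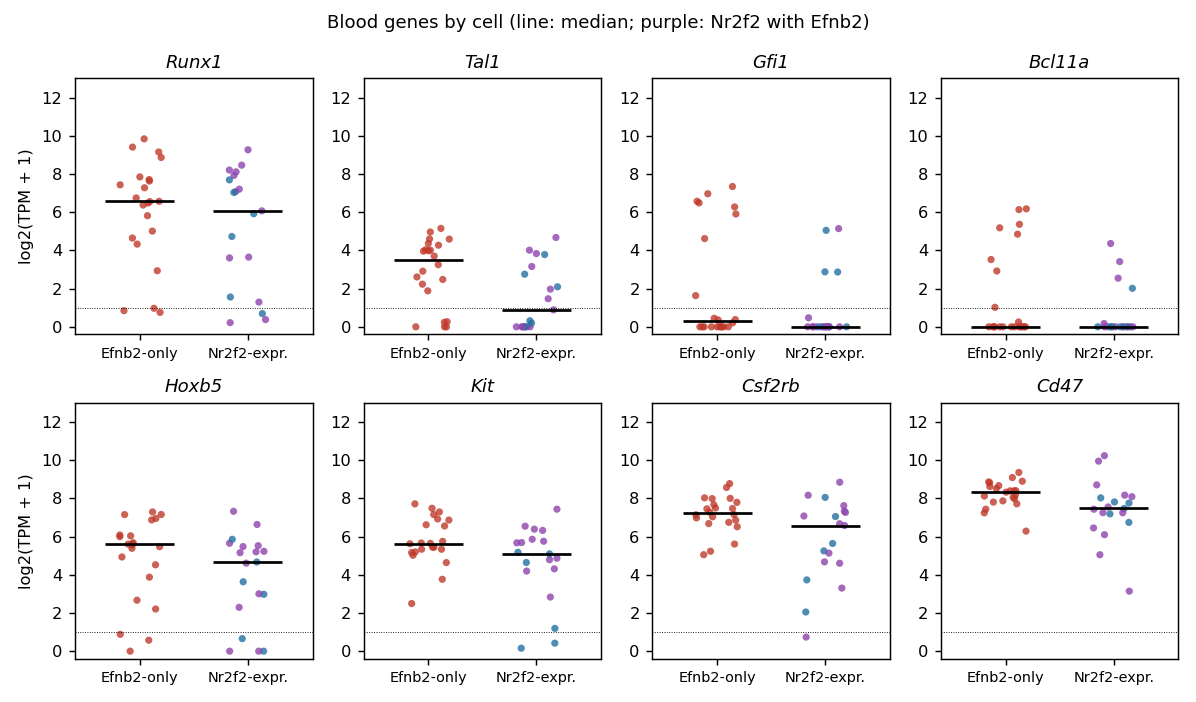
Each point is 1 cell, the vertical axis is log2(TPM + 1), the bar is the class median and the dotted line marks TPM 1, with red for Efnb2-only cells, purple for cells with both genes and blue for cells with Nr2f2 alone. Efnb2-only cells have the higher median for Tal1, Kit, Csf2rb and Cd47, the 2 lowest Kit values are cells with Nr2f2 alone, and the values of the classes overlap for every gene.

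Signalling and division were examined next. Of 18 genes of BMP, TGF-beta and VEGF signalling, 17 were counted, with a median coefficient of 0.10. It was 0.51 with the cells of both genes left out, 0.22 without number 1, -0.053 without number 2 and -0.016 without number 4. A coefficient above 1 was found for 1 of 17, beside 7.09% of all rows, and below -1 for none, beside 5.92%. Smad7, an inhibitor of TGF-beta and BMP receptors, had medians of 12.4 TPM in Efnb2-only and 4.54 TPM in Nr2f2-expressing cells and was above TPM 1 in 19 of 22 and 12 of 19 of them. Its coefficient was 1.24, with a positive difference within each number, and 0.88 without number 1, 0.84 without cells under 5000 genes and 2.103 with the cells of both genes left out. The receptor genes Bmpr1a and Tgfbr1 also had positive differences within each number, with coefficients of 0.86 and 0.38. Such genes were 3 of the 17, beside 5.29% of all rows, and none of the 17 kept the other direction, beside 5.98%. Mitotic genes showed no common direction, with 8 coefficients on each side of 0 and a median of 0.0028. The median was 0.32 with the classes set at TPM 10, -0.16 at TPM 5, -0.15 without number 1 and 0.15 without number 2. Ccnb2, the cyclin B2 gene, was above TPM 1 in 8 of 22 and 11 of 19 cells, with a coefficient of -1.35, or -0.99 without number 4. Of the 16 counted mitotic genes, 1 was below -1, beside 5.92% of all rows, and none above 1, beside 7.09%. Ccnb2 and Nusap1 had negative differences within each number, 2 of 16 beside 5.98% of all rows. None of the 16 kept the other direction, beside 5.29%. Of 13 counted S-phase genes 9 had a coefficient below 0 and 4 above 0, beside 51.9% above 0 over all rows, and the median was -0.31. It was -0.034 without number 2, -0.58 without number 1, -0.090 with the classes set at TPM 10 and -0.90 with the cells of both genes left out. Mcm4, which codes for a subunit of the replicative helicase, was above TPM 1 in 9 of 22 and 13 of 19 cells, with a coefficient of -1.1 that was -0.76 without number 2, -0.50 without number 3 and -2.76 with the classes set at TPM 10. Of the S-phase genes 1 of 13 was thus below -1, beside 5.92% of all rows, and none was above 1, beside 7.09%. All 5 counted cell cycle inhibitors had coefficients above 0, again beside 51.9% of all rows, with a median of 0.53, or 0.16 without number 2, 0.18 without number 4 and 0.84 without number 3. Cdkn2d, the gene of the inhibitor p19 of cyclin D kinases, was the only 1 of 5 above 1, beside 7.09% of all rows. Its coefficient was 1.1, or 0.72 without number 1 and 0.84 without number 3. It was 0.36 with the classes set at TPM 5, 0.65 at TPM 10 and 1.79 without cells under 5000 genes.

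**Figure D4:**
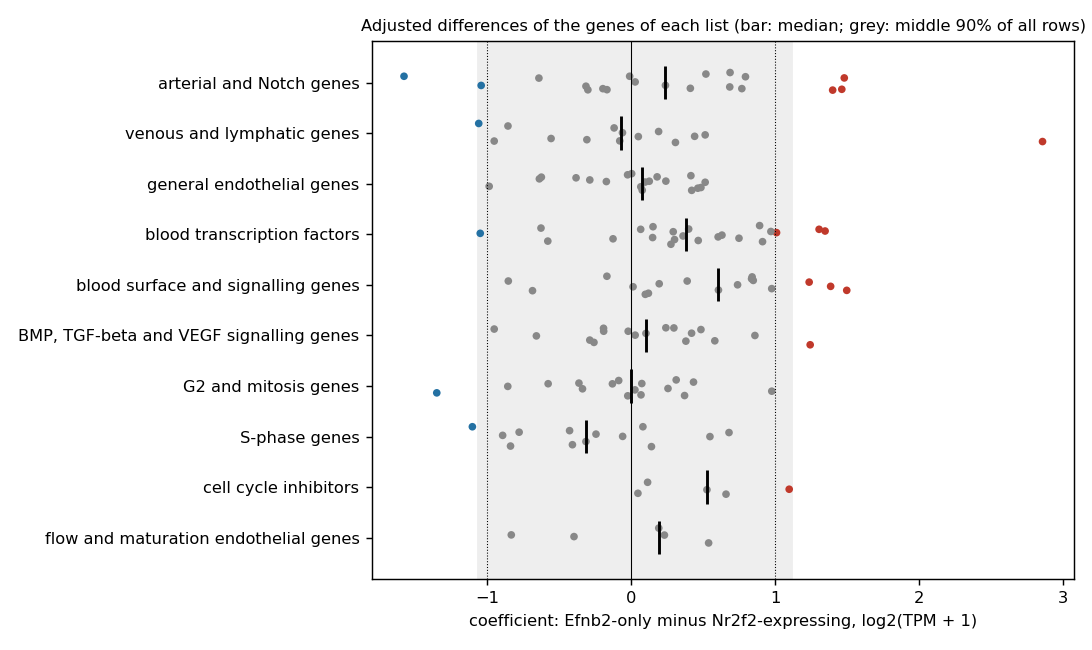
Each point is the coefficient of 1 gene, Efnb2-only minus Nr2f2-expressing in log2(TPM + 1), for 10 gene lists; black bars are list medians, the grey band holds the middle 90% of all 8845 rows (-1.06 to 1.12), and red and blue mark genes past 1 and below -1. Most points of every list fall inside the band, and the medians lie between -0.31 for S-phase genes and 0.61 for blood surface and signalling genes.

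Across the whole table, genes were named by their coefficient among those with the same direction within each first title number and without the covariate. Rows past 1 that kept 1 direction within each number made up 2.65% of the rows upward and 2.8% downward, or 234 and 248 rows. The 12 genes with the highest coefficients ran from 2.14 to 2.86, and the 12 with the lowest from -2.87 to -2.21. They were picked as the extremes of 8845 rows in these same cells, so their size is a description and holds no independent support.

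Among the genes higher in Efnb2-only cells, Rab27a (chromosome 9, 73044854 to 73097629), a GTPase of secretory granules, had a median of 13.7 TPM in Efnb2-only cells and was above TPM 1 in 15 of 22 of them (68.2%, 45.1% to 86.1%), and in 3 of 19 Nr2f2-expressing cells (15.8%, 3.38% to 39.6%), where its highest value was 20.5 TPM. Its coefficient was 2.46 with a residual SD of 1.86. Rab32, another Rab GTPase gene, was above TPM 1 in 11 and 3 cells, with none of the 3 among the 6 cells with Nr2f2 alone. Cnpy3, a chaperone of Toll-like receptors, was above TPM 1 in 18 and 9 cells. Trim47, a ubiquitin ligase gene, had medians of 41.2 and 0 TPM and was above TPM 1 in 15 and 5 cells. Tspan8, a tetraspanin gene, had medians of 106 and 0.666 TPM, although its highest value, 811 TPM, was in a Nr2f2-expressing cell, and its coefficient of 2.24 was 0.93 with the classes set at TPM 5. Uspl1, which codes for a SUMO protease, was above TPM 1 in 15 and 4 cells, with a coefficient of 2.29 that was 1.52 without number 2. The other genes of this direction were Nat9, Atxn7l1, Asb3, Zcchc10 and Dhrs7, with coefficients from 2.14 to 2.6. Nat9 had 1.55 and Asb3 1.43 with the classes set at TPM 10, Atxn7l1 had 1.36 at TPM 5, and Dhrs7 had 1.42 at TPM 5 and 1.41 with the cells of both genes left out.

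On the side of the Nr2f2-expressing cells, Fig4 (chromosome 10, 41188172 to 41303260), a phosphoinositide phosphatase of endosomes, was above TPM 1 in 2 of 22 Efnb2-only cells (9.09%, 1.12% to 29.2%) and in 13 of 19 Nr2f2-expressing cells (68.4%, 43.4% to 87.4%). Its coefficient was -2.87 with a residual SD of 2.03, and the highest single value of each class was nearly the same, 72.9 and 72.4 TPM. Lancl2 (chromosome 6, 57702540 to 57739439) was above TPM 1 in 1 of 22 (4.55%, 0.115% to 22.8%) and 11 of 19 cells (57.9%, 33.5% to 79.7%). Exosc9, a subunit of the RNA exosome, was present in all 19 Nr2f2-expressing cells, from 16.5 to 236 TPM, and in 14 of 22 Efnb2-only cells. Tpst1, a tyrosine sulphotransferase gene, was above TPM 1 in 4 and 12 cells, and Lss, an enzyme of cholesterol synthesis, in 7 and 15. Their coefficients were -2.58 and -2.37. That of Tpst1 was -4.13 with the cells of both genes left out. That of Lss was -1.5 without number 4 and -1.13 with the classes set at TPM 10. Gas6, the ligand of the TAM receptor kinases, was above TPM 1 in 6 and 11 cells, and Pvr, the poliovirus receptor gene, in 10 and 17. The remaining genes of this direction, 2610305D13Rik, Rps6kb2, BC017158, Cbr4 and Erich1, had coefficients from -2.74 to -2.21, and that of BC017158 was -1.33 with the cells of both genes left out.

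**Figure D5:**
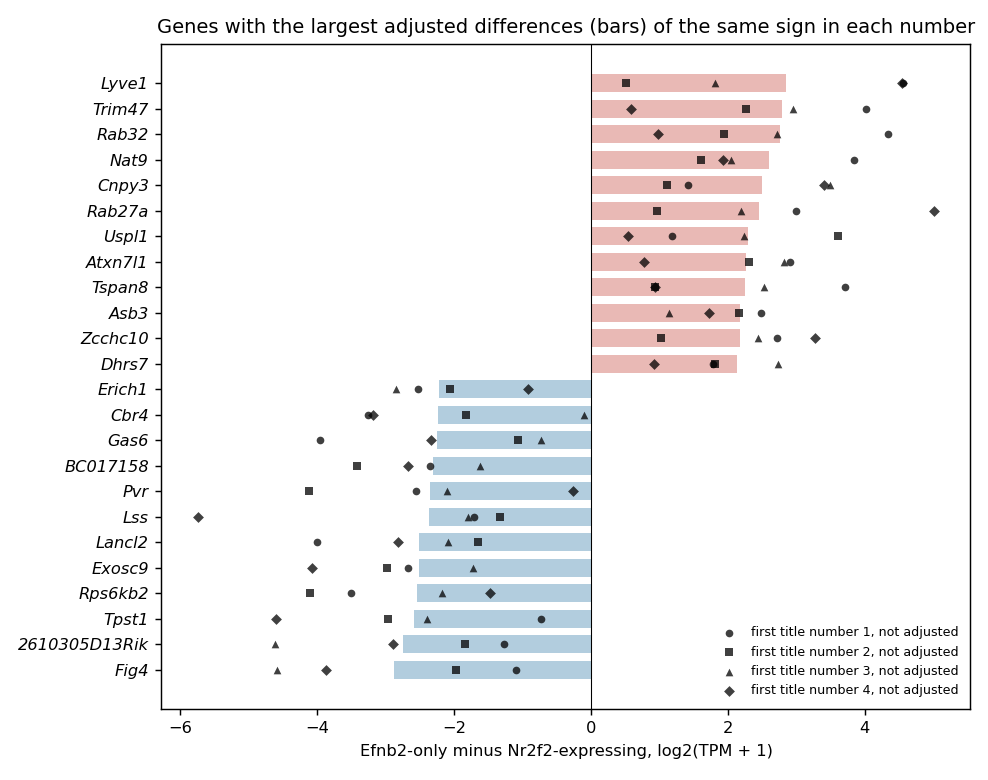
Bars give the coefficient (Efnb2-only minus Nr2f2-expressing, log2(TPM + 1), adjusted for genes per cell) of the 12 highest and 12 lowest genes named by the rule, and the 4 marks on each bar give the unadjusted difference within each first title number. All marks of a gene lie on 1 side of 0, as the rule required, and they spread widely, from 0.52 to 4.56 for Lyve1 and from -5.73 to -1.32 for Lss.

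Of the markers of other cell types, Pf4 and the myeloid genes Fcgr3 and Lyz2 were frequent enough to count. None of the 7 mesenchymal, 8 erythroid and 3 epithelial markers with a row was frequent enough to count. Of these, Krt8, Krt18 and Epcam were listed at 0 in all 41 cells, and so were Col3a1 and Pdgfrb. Globin transcripts appeared in single cells of both classes, such as Hba-a2 in 2 cells of each. The platelet gene Pf4 was above TPM 1 in 5 cells of each class, with a coefficient of -0.36, and was the only one of 4 megakaryocyte markers with a row to be counted. Of 8 myeloid markers 2 were counted. Fcgr3, an Fc receptor gene, had medians of 61.3 and 1.71 TPM and was above TPM 1 in 15 of 22 and 12 of 19 cells, with a coefficient of 1.45. The direction rested on number 1, without whose cells the coefficient was -0.16, and it was 2.25 without number 2 and 2.86 without number 3. It was -0.39 with the cells of both genes left out. Lyz2, the lysozyme gene, was above TPM 1 in 7 and 3 cells, with a coefficient of 0.80, whereas the myeloid genes Elane and Itgam were listed at 0 in all 41 cells. The part of these markers in the blood gene values above was not tested.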

How the data were processed

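The deposited table gave TPM per gene for 50 single cells. Per the labels and the study's methods, the authors amplified cDNA of each sorted cell, aligned the reads to mm10 with HISAT2 2.1.0 and estimated TPM with StringTie 1.3.4. SAMtools 0.1.19 is also named in the submitters' processing notes. No unique molecular identifiers are named, TPM keeps no depth, and no count test was run. The columns summed to between 942975 and 970894 TPM over 11879 rows, whose selection was not stated. The sources name different sequencers.

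Classes were set by Efnb2 and Nr2f2 at TPM 1. Per row, log2(TPM + 1) was fitted on class and genes above TPM 1 per cell by least squares (numpy 2.4.6, pandas 2.3.3, Python 3.11.15; intervals with scipy 1.17.1). The fit was tested on simulated data. Rows above TPM 1 in at least 20% of the 41 cells were counted, and a coefficient past 1 in size was called. Named genes were every gene of 17 lists (211 of 236 distinct genes had a row, 3 of them under an older symbol; the others were not analysed here) and the 12 highest and 12 lowest coefficients with 1 direction without the covariate and within every first title number. The members, lists and rules were chosen with earlier results of these data known. Neither clustering nor a doublet caller was applied, and no columns were identical. Alternatives were no covariate, first title number as a factor, cells with both genes left out, class levels of TPM 5 and 10, a pseudocount of 0.1, no row filter, cells under 5000 genes left out, TPM rescaled without 82 ribosomal protein rows, a call level of 2, and each first title number left out. Coordinates are from GENCODE M21 on GRCm38. A Hox gene is left unreported.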

Additional observations from a re-analysis of the deposited data

How the results depend on the processing

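Sequencing depth is unknown from TPM, so a gene missed in a cell and a gene absent from it cannot be told apart. With the cells of both genes left out (22 against 6 cells), 1262 rows were past 1 toward Efnb2-only and 1329 toward Nr2f2-expressing cells, and the median coefficients were 0.66 for arterial and Notch genes, 0.51 for BMP, TGF-beta and VEGF genes, 1.03 for flow and maturation genes, 0.79 for blood transcription factors, -0.45 for venous and lymphatic genes and -0.90 for S-phase genes. A class level of TPM 10 (25 against 9 cells) gave 988 and 1062 rows, the flow median was -0.498 and the arterial median -0.12, while TPM 5 gave 0.0059 and no row filter 0.022. A pseudocount of 0.1 gave 1362 and 1184 rows, and a call level of 2 gave 23 and 29. The median of cell cycle inhibitors was 0.23 with first title number as a factor and 0.28 without the cells under 5000 genes. As first title numbers were dropped 1 at a time, the counts ran from 755 to 1021 and from 675 to 896, the arterial median from 0.079 to 0.48 and the inhibitor median from 0.16 to 0.84. Without number 3 the counts were 1021 and 793, and without number 2 the downward count was 896. Of 42 single genes, 41 had 1 sign under the alternatives that give a value per gene, but 24 were picked for having 1 sign without the covariate and within each number and the other 18 for a coefficient past 1, so this is no sign of stability. The exception, Fcgr3, had a coefficient of -0.39 without the cells of both genes, -0.099 at TPM 10 and from -0.16 to 2.86 with 1 first title number left out, the former without number 1. Each setting with fewer than 41 cells gave more rows past 1 in both directions. With all 41 cells, so did the pseudocount of 0.1, the rescaled TPM and the absence of a row filter. The cause of these and the other shifts was not tested. All 4 first title numbers held cells of both classes, and the fit with the number as a factor, a blocked comparison, gave 623 and 542 rows. The arterial median in that fit was 0.12. The labels do not say that the number pairs cells.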

Other observations

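The 9 cells with neither gene above TPM 1 entered none of the fits. Their values are set beside those of the classes here, and no difference was tested. First title numbers 1 to 4 held 1, 1, 3 and 4 of these 9 cells. Their number of genes above TPM 1 had a median of 6487 and included the lowest cell, with 2400. A median of 17 of the 20 general endothelial genes was above TPM 1 in them, against 19 in both classes, 8 venous and lymphatic genes against 10, and 11 arterial and Notch genes against 13.5 and 13. Of blood transcription factors they had a median of 16, against 13.5 and 13. Nfe2, a factor of the platelet and red cell lineages, was above TPM 1 in 8 of these 9 cells, in 6 of 22 Efnb2-only and in 4 of 19 Nr2f2-expressing cells, and Ikzf2, a lymphoid factor gene, in 8, 6 and 4. Pf4 was above TPM 1 in 7 of the 9 cells. Robo4, the gene of an endothelial roundabout receptor, was above TPM 1 in 3 of the 9 cells and in 19 of 22 and 17 of 19 cells of the classes. Nfe2, Ikzf2, Pf4 and Robo4 were singled out after their values were seen.

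The Nr2f2-expressing cells were also counted apart, as those with Nr2f2 alone and those with both genes. Hey1 was above TPM 1 in 0 of 6 and 5 of 13 cells, Stab2 in 0 and 6, Mrc1 in 0 and 5, and Meis1, a cofactor of Hox proteins, in 1 and 8. Robo4 was above TPM 1 in 4 of 6 and 13 of 13 cells. By 3 counts, finding 0 in 6 cells leaves room for 50% of such cells above TPM 1, so these counts are given as values only, and the genes were chosen after their values were seen.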
